A study of Bos taurus with 22 samples.

Results

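The comparison described here is GLP-2 injection against vehicle injection in steers infused with water in place of casein. Its members are the steers whose treatment label is Control or GLP-2, which gave 10 of the 22 steers analysed, 5 in each group. No control steer of block 6 and no GLP-2 steer of block 2 is analysed here. The study asked how glucagon-like peptide 2 (GLP-2), alone or with casein, altered gene expression in the small intestine of cattle given a large load of starch. All animals were Holstein steers of 10 to 12 months, and all received 3.94 g raw corn starch per kg body weight per day through an infusion line into the abomasum, the glandular stomach, for the 7 d of treatment. Control steers received water through that line and subcutaneous injections of vehicle (bovine serum albumin in saline). GLP-2 steers received water and 100 µg GLP-2, a synthetic peptide of the bovine sequence, per kg body weight per day, divided between a morning and an evening injection. The other 12 steers were infused with 1.3 g casein per kg body weight per day, 6 with vehicle (Casein) and 6 with the same dose of GLP-2 (Casein + GLP-2), and are used here only for contrast. Steers had been assigned within blocks of similar body weight, which the replicate numbers mark. The sample was mucosa scraped from the middle of the jejunum with a glass slide, so each library held RNA of every cell type in the scraping, from villus and crypt epithelium to lymphoid tissue and any muscle below it. Polyadenylated RNA was sequenced from strand-specific libraries.

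GLP-2 is cut from proglucagon, the product of GCG, in enteroendocrine L cells and is released after a meal. Its receptor, GLP2R, is found mainly on enteric neurons, enteroendocrine cells and subepithelial fibroblasts and not on most enterocytes, so its known effects on crypt proliferation, villus height and nutrient uptake run through relayed signals such as IGF1 and ligands of the ERBB receptors. In the jejunum, enterocytes complete digestion with peptidases and disaccharidases anchored in the brush border and take up the products through dedicated transporters. The same mucosa holds lymphoid follicles, single or grouped in Peyer's patches, in which B cells divide rapidly.

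Library totals ranged from 11490049 to 20655744 counts assigned to genes in control steers and from 10447886 to 28447810 in GLP-2 steers, and neither totals nor body weight differed detectably (exact permutation test over 252 assignments, 2-sided p = 0.516 and p = 0.5; the smallest p this design allows is 0.00794). Levels below are counts scaled to the library total (CPM) after TMM correction, and values run in the order of control replicates 1, 2, 3, 4 and 5 and of GLP-2 replicates 1, 3, 4, 5 and 6. The tissue label was borne out by villus enterocyte markers: FABP2, the intestinal fatty acid binding protein, stood at 9365, 21869, 2699, 15607 and 467 CPM in control steers and 7679, 27120.0, 7989, 12174 and 20721 CPM in GLP-2 steers. Summed over 8 enterocyte markers, levels were 14818, 43728, 5119.9, 26842 and 1538 CPM in control steers and 19066, 52156, 13475, 19976 and 43815 CPM in GLP-2 steers, so the 2 lowest steers of the 10 were Control 5 and Control 3. Markers of B cell follicles went the other way: 8 markers summed to 955, 14.4, 1427, 135 and 771 CPM in control steers against 28.5, 18.9, 22.4, 27.9 and 14.9 CPM in GLP-2 steers, with PAX5, a B cell transcription factor, at 0 in 3 GLP-2 steers. Control 2, at 14.4 CPM, lay below every GLP-2 steer, and the other 4 control steers lay above all of them. In bulk tissue, fewer cells of a type and less RNA per cell cannot be told apart.

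The comparison covered 15086 genes of the 27570 in the table. By edgeR's quasi-likelihood test 0 genes (0%) were called at an adjusted p of 0.05, the smallest being 0.101, while 2103 genes were at an unadjusted p of at most 0.05 (13.9%), 843 of them higher (5.59%) and 1260 lower (8.35%) in GLP-2 steers. DESeq2's Wald test on the same counts called 289 genes (2.04% of the 14198 given an adjusted p), 62 higher (0.437%) and 227 lower (1.6%). Every one of the 289 was at an unadjusted edgeR p of at most 0.05, and for 81 of them the groups did not overlap. Over all genes, 134 (0.888%) were higher in every GLP-2 steer than in any control steer and 130 (0.862%) were lower in every GLP-2 steer. The median log2 fold change (GLP-2 minus control) of all genes tested was 0.04, and 52.6% of genes lay above 0. With a correction for gene length that median was -0.1 and the genes at an unadjusted p of at most 0.05 split into 414 higher and 2094 lower. That split was not stable: it was 956 and 926 with the replicate block, 545 and 1495 with block and length correction together, 673 and 388 with the follicle covariate described below, and 1199 and 1130 or 1296 and 1048 in limma on log2(FPKM + 1) or log2(FPKM + 0.1). In the water-infused steers the number of genes with a count differed between the groups. Libraries held 17306 to 18602 genes with at least 1 count in GLP-2 steers against 15318 to 17236 in control steers, with no overlap (exact permutation p = 0.00794, 2-sided). Thinned to the smallest total, a setting added after the data were seen, the ranges were 17140 to 18513 and 15311 to 17080, a mean difference of 1322 genes (exact permutation p = 0.00794). Control 3 and 5 set the low end, at 15359 and 15311 genes after thinning, against 16760, 17080 and 16808 in Controls 1, 2 and 4. Thinning took few genes from them (15372 and 15318 before), while Control 2 went from 17236 to 17080. It evens out totals alone, and what set Control 3 and 5 apart was not tested. In casein-infused steers the ranges before thinning overlapped, at 17226 to 18140 with GLP-2 and 14821 to 17767 with vehicle.

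Leading the genes that were higher after GLP-2, ranked by p, were a membrane transporter family member, a chromatin protein, a serotonin receptor and the insulin receptor. MFSD11, a membrane protein of the major facilitator superfamily (chromosome 19, 55014709 to 55043048, ARS-UCD1.2), stood at 35.6, 44.5, 25.2, 47.1 and 32.6 CPM in control steers and 59.1, 68.3, 69.5, 76.7 and 70.3 CPM in GLP-2 steers (log2 fold change 0.89 ± 0.17 (SE), edgeR adjusted p = 0.101). Every GLP-2 steer was above every control steer, and the means were 37.0 ± 8.94 and 68.8 ± 6.32 CPM (SD, n = 5 each). BAHCC1, a chromatin reader protein (chromosome 19, 51302716 to 51357264), stood at 2.51, 5.03, 2.75, 4.67 and 4.5 CPM in control steers and 13.2, 12.3, 9.57, 8.54 and 12.2 CPM in GLP-2 steers (log2 fold change 1.52 ± 0.30 (SE), edgeR adjusted p = 0.101), again without overlap. WWC2, of a family that acts in Hippo signaling, stood at 3.56, 11.6, 5.26, 8.5 and 6.05 CPM in control steers and 19.5, 27.8, 15, 16.9 and 23.8 CPM in GLP-2 steers (log2 fold change 1.56 ± 0.34 (SE), edgeR adjusted p = 0.122). Its highest control steer, Control 2, lay below its lowest GLP-2 steer. TMEM164, a membrane protein, stood at 129.8, 141, 80.7, 145 and 120.2 CPM in control steers and 209, 353, 207, 199 and 241 CPM in GLP-2 steers (log2 fold change 0.97 ± 0.21 (SE), edgeR adjusted p = 0.122), where GLP-2 3 was highest and the groups did not overlap. HTR6, a serotonin receptor, was expressed at 1.4, 2.12, 1.41, 3.1 and 1.71 CPM in control steers and 6.62, 4.48, 7.23, 13 and 7.02 CPM in GLP-2 steers (log2 fold change 1.97 ± 0.43 (SE), edgeR adjusted p = 0.122). GLP-2 5 was the highest steer and no control steer reached the lowest GLP-2 steer. INSR, the insulin receptor (chromosome 7, 16058828 to 16183062), stood at 4.56, 14.3, 5.57, 8.67 and 7.37 CPM in control steers and 30, 20.6, 19.9, 18.5 and 25.8 CPM in GLP-2 steers (log2 fold change 1.51 ± 0.34 (SE), edgeR adjusted p = 0.131). Control 2 was again the highest control steer, below all GLP-2 steers.

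MME encodes neprilysin, a peptidase of the brush border (chromosome 1, 112478989 to 112595507), and stood at 102, 172, 84.8, 196 and 112 CPM in control steers and 316, 797, 256, 295 and 672 CPM in GLP-2 steers (log2 fold change 1.81 ± 0.44 (SE), edgeR adjusted p = 0.142). The GLP-2 steers fell into a pair at 797 and 672 CPM, GLP-2 3 and 6, and 3 steers between 256 and 316 CPM, all above the highest control steer at 196 CPM. NMT2, an N-myristoyltransferase that attaches a fatty acid to proteins, ranged from 6.31 to 9.12 CPM in control steers and from 10.5 to 14.4 CPM in GLP-2 steers, and ANKRD50, an endosomal recycling protein, from 2.67 to 6.7 CPM in control and 7.18 to 19.8 CPM in GLP-2 steers (log2 fold changes 0.88 ± 0.22 (SE) and 1.35 ± 0.34 (SE)). Neither pair of ranges overlapped. TEX2 (37.7 to 62.5 against 57.9 to 117 CPM) and NEO1, the receptor neogenin (10.4 to 27.5 against 25.8 to 67 CPM), overlapped by 1 GLP-2 steer each, and their log2 fold changes were 0.75 ± 0.18 (SE) and 1.2 ± 0.30 (SE). The edgeR adjusted p of NMT2, ANKRD50, TEX2 and NEO1 was 0.142 for each. PXT1, a peroxisomal protein gene known from testis, had 0 counts in all 5 control steers and 4, 10, 13, 9 and 10 counts in the GLP-2 steers. Against a floor of 3 counts over the whole control group, its pooled level was at least 13.6-fold higher after GLP-2, at a level of 0.545 CPM, and it was left without an adjusted p by DESeq2. DESeq2 called MFSD11 (adjusted p = 0.000364), BAHCC1 (0.000405), WWC2 and HTR6 (0.00226 each), TMEM164 (0.00425), INSR (0.00553), MME (0.00623) and NMT2 (0.00694), which were its 8 higher genes of smallest p with a symbol.

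Among the 12 lower genes of smallest p with a symbol, some were split within the control group as the follicle markers were, and others were not. HSH2D, an SH2 domain adaptor of blood cells (chromosome 7, 6861680 to 6870122), stood at 62.7, 50.7, 70.2, 43.7 and 43.4 CPM in control steers and 16.5, 21.9, 21.5, 18.2 and 27.7 CPM in GLP-2 steers (log2 fold change -1.35 ± 0.25 (SE), edgeR adjusted p = 0.101). Its groups did not overlap, and Control 2, with follicle markers as low as those of GLP-2 steers, stood at 50.7 CPM. SOCS1, which restrains cytokine signaling (chromosome 25, 9913007 to 9913678), stood at 11.7, 17.6, 14.4, 13.7 and 20.4 CPM in control steers and 4.79, 5.97, 8.67, 6.21 and 4.73 CPM in GLP-2 steers (log2 fold change -1.35 ± 0.27 (SE), edgeR adjusted p = 0.101). Here too every control steer was above every GLP-2 steer, Control 2 included. CNP, a cyclic nucleotide phosphodiesterase, ranged from 126 to 245 CPM in control steers and from 75.5 to 105 CPM in GLP-2 steers, without overlap (log2 fold change -0.98 ± 0.22 (SE), edgeR adjusted p = 0.131). SIT1, a signaling adaptor of lymphocytes, stood at 88.7, 34.7, 106, 36.3 and 85.9 CPM in control steers and 20.7, 26.1, 36.1, 28.5 and 15.4 CPM in GLP-2 steers (log2 fold change -1.47 ± 0.28 (SE), edgeR adjusted p = 0.101). Control 2 and Control 4 fell within or next to the GLP-2 steers, so the groups overlapped. PGLYRP2, which cleaves bacterial peptidoglycan, stood at 13.8, 2.65, 19.8, 2.93 and 12.4 CPM in control steers and 0.638, 1.86, 0.493, 0.97 and 1.07 CPM in GLP-2 steers (log2 fold change -3.34 ± 0.68 (SE), edgeR adjusted p = 0.113). Control 2 and 4, at 2.65 and 2.93 CPM, were above every GLP-2 steer but far below the other 3 control steers. BIN1, a protein that bends membranes, ranged from 39.1 to 111 CPM in control and 24.4 to 36.8 CPM in GLP-2 steers without overlap (log2 fold change -1.19 ± 0.25 (SE), edgeR adjusted p = 0.122), and LPXN, the adaptor leupaxin, from 57.8 to 133 CPM in control and 39.1 to 59.1 CPM in GLP-2 steers with an overlap of 1 steer (log2 fold change -0.99 ± 0.21 (SE), edgeR adjusted p = 0.122).

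MEF2B, a transcription factor of germinal center B cells, stood at 34.7, 2.03, 93.5, 4.56 and 54.5 CPM in control steers and 0.958, 1.49, 1.23, 1.36 and 2.29 CPM in GLP-2 steers (log2 fold change -4.68 ± 0.93 (SE), edgeR adjusted p = 0.101). Controls 1, 3 and 5 carried this difference, since Control 2 lay inside the GLP-2 range and Control 4 was at 4.56 CPM. HMCES, which binds abasic sites in DNA, showed the same order of control steers at 162, 17.5, 273, 24.3 and 169 CPM in control steers and 18.8, 13.8, 13.7, 16 and 14.6 CPM in GLP-2 steers (log2 fold change -3.07 ± 0.64 (SE), edgeR adjusted p = 0.121). BLNK, the linker below the B cell receptor, stood at 83.6, 32.6, 125, 34.4 and 71.2 CPM in control steers and 7.26, 9.12, 10.3, 14.8 and 6.03 CPM in GLP-2 steers (log2 fold change -2.87 ± 0.62 (SE), edgeR adjusted p = 0.122). Its lowest control steers, at 32.6 and 34.4 CPM, still exceeded all GLP-2 steers. FCRLA, an Fc receptor-like protein of B cells, was at 0 in GLP-2 3 and 6 and at most 0.485 CPM in the others, against 49.6, 0.529, 79.2, 5.46 and 44.4 CPM in control steers (log2 fold change -7.99 ± 1.7 (SE), edgeR adjusted p = 0.122). Its groups did not overlap, though Control 2, at 0.529 CPM, lay just above the highest GLP-2 steer. DESeq2's adjusted p values were 7.56e-06 for MEF2B, 0.000139 for HMCES, 0.000238 for PGLYRP2, 0.000386 for SOCS1 and 0.000405 for HSH2D. A further edgeR fit took each steer's follicle score (the mean log2 CPM of 30 follicle genes) as a covariate. In it the log2 fold change was -1.06 for HSH2D, -1.17 for SOCS1, -0.99 for MEF2B and -0.50 for HMCES. For the leading higher genes it was 0.56 for MFSD11, 0.96 for BAHCC1, 0.97 for WWC2 and 0.93 for INSR. No adjusted p in that fit was below 0.574. The score is made of genes that differ between the groups and so overlaps with treatment. A smaller or reversed value in that fit therefore cannot separate follicle content from treatment, here or below.

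**Figure D1:**
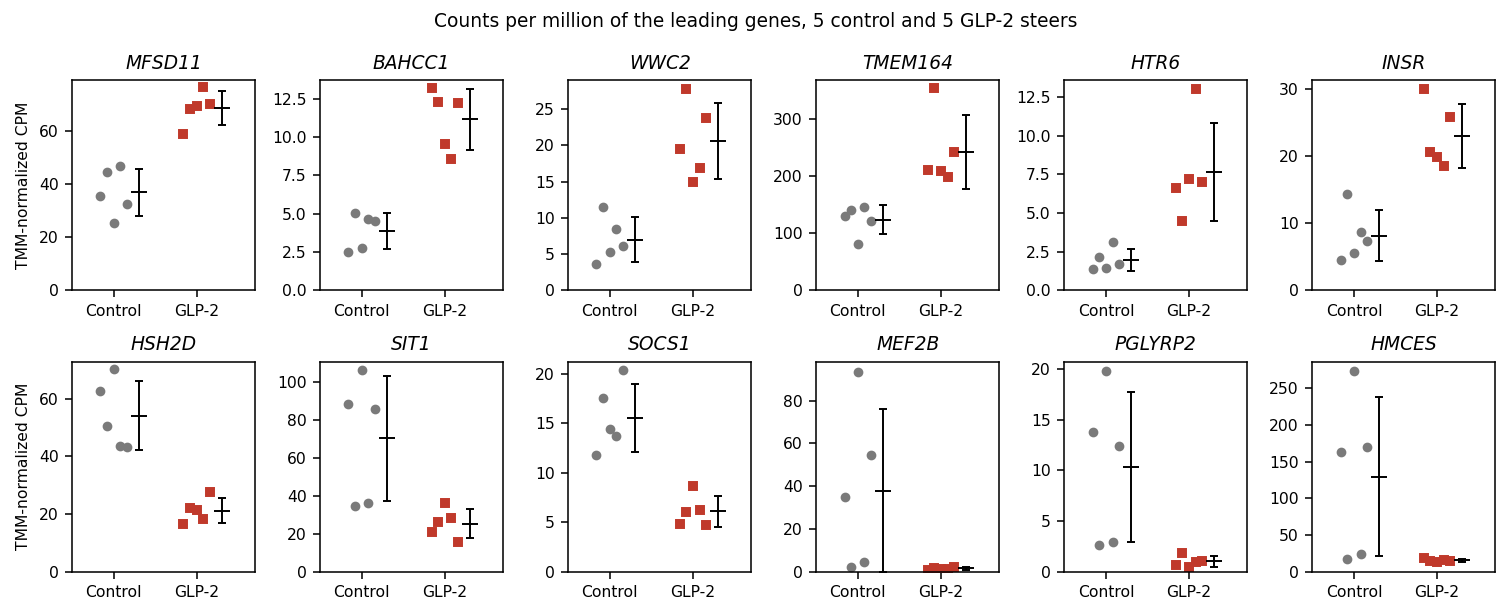
TMM-normalized CPM of 6 leading higher genes (upper row) and 6 leading lower genes (lower row) in 5 control and 5 GLP-2 steers. Each point is 1 steer and the bars are the mean ± SD; MFSD11 runs from 25.2 to 47.1 CPM in control steers and from 59.1 to 76.7 in GLP-2 steers, while MEF2B and HMCES are split within the control group.

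The receptor, the precursor of the injected peptide and the proposed relay signals were looked at next. The injected peptide leaves no RNA, so none of these values measures the dose. GLP2R, the GLP-2 receptor (chromosome 19, 28982918 to 29024862), stood at 5.01, 3.09, 2.82, 11.3 and 9.85 CPM in control steers and 29.6, 6.17, 8.3, 6.7 and 4.42 CPM in GLP-2 steers (log2 fold change 0.78 ± 0.71 (SE), edgeR adjusted p = 0.625). GLP-2 1 alone stood at 29.6 CPM, the other 4 GLP-2 steers lay within the control range, and without GLP-2 1 the log2 fold change was -0.03. GCG, the proglucagon gene, stood at 30, 4.41, 6.83, 18.2 and 15.8 CPM in control steers and 50.4, 27.4, 31.5, 18.2 and 20.7 CPM in GLP-2 steers (log2 fold change 0.97 ± 0.39 (SE), edgeR adjusted p = 0.28), with overlap between 18.2 and 30.0 CPM. IGF1, the growth factor thought to carry GLP-2's signal to the crypt, stood at 1.05, 1.85, 2.2, 3.1 and 1.16 CPM in control steers and 5.11, 3.52, 5.26, 1.65 and 3.66 CPM in GLP-2 steers (log2 fold change 1.04 ± 0.44 (SE), edgeR adjusted p = 0.306). Its levels were low, and 4 of 5 GLP-2 steers were above every control steer. VIPR1, a receptor of vasoactive intestinal peptide, stood at 42.8, 92.8, 42, 71.3 and 33.8 CPM in control steers and 61.8, 119, 122, 133 and 134 CPM in GLP-2 steers (log2 fold change 1.01 ± 0.32 (SE), edgeR adjusted p = 0.209). Again 4 of 5 GLP-2 steers exceeded all controls. HBEGF, an ERBB ligand, was the 1 member of the list whose groups did not overlap, at 2.91, 4.23, 4.86, 2.42 and 4.11 CPM in control steers and 2.15, 1.78, 1.73, 1.65 and 1.75 CPM in GLP-2 steers, lower after GLP-2 (log2 fold change -1.03 ± 0.67 (SE), edgeR adjusted p = 0.484). Over all genes, 0.862% were lower without overlap. Of the 21 receptor and mediator genes tested, 10 lay above and 11 below 0, with a median of -0.04. The 3 members at an unadjusted p of at most 0.05, GCG, VIPR1 and IGF1, were all higher. They made up 14.3% of the list, against 5.59% of all genes higher and 13.9% in either direction.

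Of the ERBB and insulin receptor genes, none passed the adjusted threshold in edgeR and INSR alone was called by DESeq2 (1 of 21, against 0.437% of all genes higher). ERBB2 stood at 121, 156, 103, 115 and 87.1 CPM in control steers and 144, 253, 151, 172 and 224 CPM in GLP-2 steers (log2 fold change 0.70 ± 0.28 (SE), edgeR adjusted p = 0.287), and ERBB3, its signaling partner, at 265, 373, 182, 242 and 125 CPM in control steers and 337, 609, 293, 333 and 559.9 CPM in GLP-2 steers (log2 fold change 0.85 ± 0.35 (SE), edgeR adjusted p = 0.29). EGFR stood at 1.85, 8.65, 4.94, 5.63 and 3.41 CPM in control steers and 14.4, 9.61, 8.26, 5.24 and 13.3 CPM in GLP-2 steers (log2 fold change 1.06 ± 0.48 (SE), edgeR adjusted p = 0.326). In each of these receptors the control and GLP-2 ranges overlapped, mostly through Control 2. IGF2R, which clears IGF2, ranged from 58.7 to 129.8 CPM in control and 102 to 157 CPM in GLP-2 steers (log2 fold change 0.57 ± 0.28 (SE), edgeR adjusted p = 0.37), and AKT2, a kinase downstream of the insulin receptor, from 27.3 to 66.1 CPM in control and 24.6 to 31.3 CPM in GLP-2 steers (log2 fold change -0.49 ± 0.22 (SE), edgeR adjusted p = 0.321), the list's 1 lower member at an unadjusted p of at most 0.05. Of 21 members tested, 13 were above 0 with a median of 0.21, and INSR, ERBB2, ERBB3 and EGFR were among the 5 higher members at that p. With the 1 lower member these made up 28.6% of the list, against 13.9% of all genes in either direction. With a correction for gene length the median turned to -0.05, the 1 change of sign in 17 alternative settings. With 1 steer left out it ranged from 0.11 to 0.49.

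Brush border peptidases had the highest median log2 fold change of the 34 lists with a tested member, 1.48, and all 14 tested were above 0. At an unadjusted p of at most 0.05 there were 8 of them, against 5.59% of all genes higher, and 1, MME, was called by DESeq2, against 0.437%. ANPEP, aminopeptidase N, stood at 61.2, 1340.0, 112, 339 and 48.9 CPM in control steers and 989, 7238, 1326, 286 and 2466 CPM in GLP-2 steers (log2 fold change 2.69 ± 0.95 (SE), edgeR adjusted p = 0.237). The spread within each group was wide, and Control 2 at 1340.0 CPM lay above 3 of the GLP-2 steers. MEP1A, a subunit of the metalloprotease meprin, stood at 43, 419, 35.3, 222 and 9.93 CPM in control steers and 410.1, 860.0, 259, 381 and 947 CPM in GLP-2 steers (log2 fold change 1.97 ± 0.80 (SE), edgeR adjusted p = 0.285), and MEP1B, its partner, ranged from 32.4 to 241 CPM in control and 125 to 414 CPM in GLP-2 steers. XPNPEP2, which removes residues ahead of proline, stood at 17.4, 165, 32.4, 95 and 14.4 CPM in control steers and 137, 492, 99.7, 73.7 and 277 CPM in GLP-2 steers (log2 fold change 1.74 ± 0.66 (SE), edgeR adjusted p = 0.264). ACE, which also cleaves peptides at this membrane, ranged from 91.5 to 2342 CPM in control and 897 to 5520.1 CPM in GLP-2 steers. NAALADL1, another membrane peptidase, had 1 steer far above the rest, GLP-2 3 at 113 CPM, with the other GLP-2 steers at 2.52 to 8.01 CPM and control steers at 1.02 to 5.03 CPM (log2 fold change 3.5 ± 0.93 (SE), edgeR adjusted p = 0.163). GLP-2 3 was the highest steer for each of MME, ANPEP, XPNPEP2, ACE and NAALADL1, and Control 5 or Control 3 the lowest.

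Of 16 peptide and amino acid transporters tested, 13 were above 0, with a median of 1.18. In this list 9 higher and 1 lower were at an unadjusted p of at most 0.05 (5.59% and 8.35% of all genes), and DESeq2 called SLC7A9 and SLC15A1 higher. SLC15A1, the peptide transporter PEPT1 of the brush border, stood at 60.9, 299, 43.7, 139.6 and 83.5 CPM in control steers and 419, 1511, 192, 139.9 and 759 CPM in GLP-2 steers (log2 fold change 2.27 ± 0.70 (SE), edgeR adjusted p = 0.194, DESeq2 adjusted p = 0.028). Control 2 lay above GLP-2 4 and 5, and Control 4 was level with GLP-2 5. SLC7A9, the light subunit of the carrier for cystine and basic amino acids, stood at 2.2, 7.85, 0.785, 5.24 and 1.01 CPM in control steers and 22.6, 195, 4.48, 3.2 and 50.5 CPM in GLP-2 steers (log2 fold change 4.02 ± 1.15 (SE), edgeR adjusted p = 0.174, DESeq2 adjusted p = 0.0155). SLC6A19, the main sodium-coupled carrier of neutral amino acids, stood at 18.4, 115, 5.81, 36.6 and 3.41 CPM in control steers and 138, 975, 59.8, 23.8 and 288 CPM in GLP-2 steers (log2 fold change 3.05 ± 1.17 (SE), edgeR adjusted p = 0.271), with GLP-2 3 again highest and GLP-2 5 among the control steers. SLC1A1, a glutamate and aspartate carrier, ranged from 9.0 to 94 CPM in control and 35.7 to 291 CPM in GLP-2 steers (log2 fold change 1.84 ± 0.62 (SE), edgeR adjusted p = 0.223), and SLC3A2, a heavy subunit shared by basolateral exchangers, from 58.7 to 135 CPM in control and 77.1 to 640.2 CPM in GLP-2 steers (log2 fold change 1.36 ± 0.45 (SE), edgeR adjusted p = 0.218). SLC7A5, a large neutral amino acid exchanger of dividing cells, was the lower member, at 22.8, 3.44, 40.8, 7.88 and 38 CPM in control steers and 14.9, 5.76, 8.83, 11.1 and 6.94 CPM in GLP-2 steers. Controls 1, 3 and 5 were the high control steers, as for the follicle markers.

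Carbohydrases and hexose transporters lay above 0 without exception, but few reached the unadjusted threshold. SI, sucrase-isomaltase, stood at 638, 733, 222, 856 and 230.0 CPM in control steers and 701, 1785, 629.8, 545 and 1292 CPM in GLP-2 steers (log2 fold change 0.89 ± 0.49 (SE), edgeR adjusted p = 0.406). MGAM, maltase-glucoamylase, stood at 123, 1104, 102, 793 and 34 CPM in control steers and 785, 1381, 596, 858 and 1479 CPM in GLP-2 steers (log2 fold change 1.24 ± 0.77 (SE), edgeR adjusted p = 0.456), and LCT, lactase, at 85.5, 3386, 198, 1408 and 166 CPM in control steers and 3580.1, 3142, 696, 1119 and 5574 CPM in GLP-2 steers (log2 fold change 1.43 ± 0.89 (SE), edgeR adjusted p = 0.46). Control 2 and Control 4 lay within the GLP-2 range for both, and the 3 other control steers lay below every GLP-2 steer. TREH, trehalase, ranged from 67.5 to 225 CPM in control and 146 to 313 CPM in GLP-2 steers (log2 fold change 0.56 ± 0.42 (SE), edgeR adjusted p = 0.545). The median of the 4 carbohydrases was 1.06, and -0.10 with the follicle score as a covariate. SLC5A1, the sodium-glucose cotransporter SGLT1, stood at 353, 1014, 166, 751 and 60.6 CPM in control steers and 552, 1072, 357, 597 and 1036 CPM in GLP-2 steers (log2 fold change 0.62 ± 0.64 (SE), edgeR adjusted p = 0.667). Control 2 was within the GLP-2 steers' upper end at 1014 CPM and Control 5 was the lowest at 60.6 CPM. SLC2A2, the basolateral glucose carrier GLUT2, stood at 34, 94.9, 5.41, 121 and 2.79 CPM in control steers and 79.2, 122, 49.9, 88.8 and 160.4 CPM in GLP-2 steers (log2 fold change 0.95 ± 0.80 (SE), edgeR adjusted p = 0.591), and SLC2A5, the fructose carrier GLUT5, at 13.9, 4.94, 6.59, 11.5 and 9.31 CPM in control steers and 5.83, 43.8, 11.6, 18.6 and 12.5 CPM in GLP-2 steers (log2 fold change 1.0 ± 0.69 (SE), edgeR adjusted p = 0.508). SLC5A11, an inositol and glucose cotransporter of low level here, was the member of the 5 at an unadjusted p of at most 0.05 (20% of the list, 5.59% of all genes higher), at 0.10, 2.65, 0, 0.225 and 0 CPM in control steers and 3.67, 19.8, 0.863, 0.582 and 7.17 CPM in GLP-2 steers. The study lists SLC2A5 under another gene identifier than the entry measured here. The 5 hexose transporters had a median of 0.95, which was -0.42 with the follicle covariate. In that covariate fit the log2 fold change was below 0 for SI, MGAM, TREH, SLC5A1 and SLC2A2 (-0.04, -0.16, -0.49, -0.42 and -0.49) and above 0 for LCT, SLC2A5 and SLC5A11 (0.11, 0.41 and 2.9). The medians of the peptidases and of the amino acid transporters were 0.50 and 0.76 in it.

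**Figure D2:**
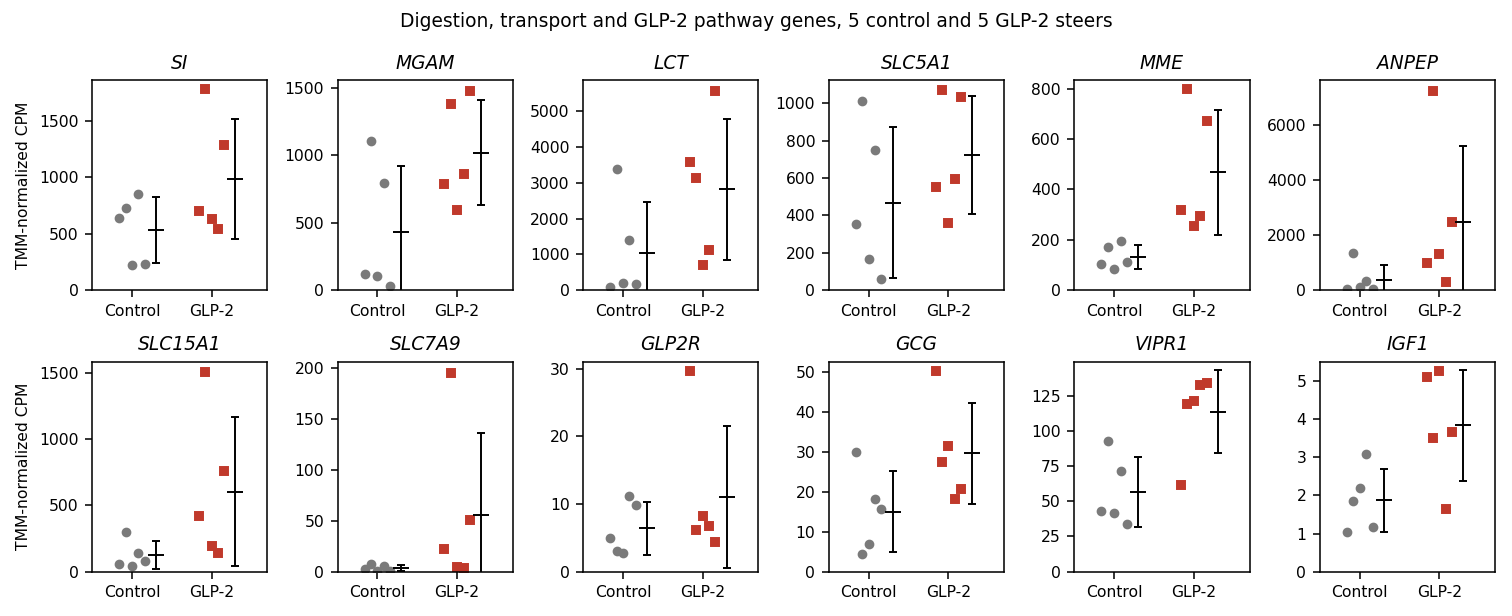
TMM-normalized CPM of digestion and transport genes and of GLP-2 pathway genes in 5 control and 5 GLP-2 steers, with the mean ± SD beside the points. GLP2R is carried by 1 GLP-2 steer at 29.6 CPM, MME separates the groups, and the lactase and MGAM levels of Control 2 and 4 lie among those of GLP-2 steers.

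Genes of fat uptake and chylomicron assembly were above 0 in 18 of 22 cases with a median of 0.52, yet no higher member was at an unadjusted p of at most 0.05. PLIN2, the coat protein of lipid droplets, was the exception in the other direction, at 71.6, 47.1, 54.1, 66.5 and 44.3 CPM in control steers and 41.2, 29.3, 31.8, 33 and 42.8 CPM in GLP-2 steers (log2 fold change -0.67 ± 0.22 (SE), edgeR adjusted p = 0.21), and its groups did not overlap. TM6SF2, needed to load lipid onto chylomicrons, ranged from 163 to 511 CPM in control and 385 to 795 CPM in GLP-2 steers (log2 fold change 0.78 ± 0.38 (SE), edgeR adjusted p = 0.362). Fatty acid oxidation genes gave 20 of 21 above 0 with a median of 0.28 and none at that p. Among vitamin A genes, 13 of 16 were above 0 (median 0.44). RDH11, a retinal reductase, and DHRS3, which returns retinal to retinol, ranged from 13.3 to 27.6 and 52.5 to 92.7 CPM in control steers and from 20.2 to 46.2 and 80.8 to 133 CPM in GLP-2 steers. STRA6, a membrane receptor for retinol, was lower, at 12, 0.353, 13, 1.63 and 21.3 CPM in control steers and 1.36, 0.663, 0.822, 1.46 and 0.763 CPM in GLP-2 steers (log2 fold change -3.26 ± 1.06 (SE), edgeR adjusted p = 0.212, DESeq2 adjusted p = 0.0352), and so was CRABP1, a retinoic acid binding protein (0.618 to 13.2 against 0.458 to 1.75 CPM). For STRA6, controls 1, 3 and 5 were high and Control 2 was below all GLP-2 steers. Iron and zinc carriers were above 0 in 13 of 14 cases (median 0.43), among them TFRC, the transferrin receptor, at 16.2, 24.2, 15.7, 18.1 and 15.2 CPM in control steers and 44.3, 51, 26.9, 13.3 and 32.2 CPM in GLP-2 steers (log2 fold change 0.91 ± 0.35 (SE), edgeR adjusted p = 0.273).

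Transcription factors of the enterocyte were above 0 in 21 of 23 cases, with a median of 0.57 and 7 higher at an unadjusted p of at most 0.05 (5.59% of all genes), none lower. PPARGC1A, a coactivator of mitochondrial and gluconeogenic genes, stood at 4.61, 6.88, 7.92, 9.18 and 8.3 CPM in control steers and 12.5, 17.5, 11.5, 19 and 16.9 CPM in GLP-2 steers (log2 fold change 1.07 ± 0.27 (SE), edgeR adjusted p = 0.147, DESeq2 adjusted p = 0.0234), without overlap. HNF4A, a master regulator of enterocyte genes, stood at 36.1, 149, 42.4, 103 and 68.1 CPM in control steers and 182, 177, 115, 103 and 167 CPM in GLP-2 steers (log2 fold change 0.90 ± 0.36 (SE), edgeR adjusted p = 0.281). Control 2 was the highest control steer and lay among the GLP-2 steers. MAF ranged from 12.2 to 88 CPM in control and 54.3 to 109 CPM in GLP-2 steers (log2 fold change 0.99 ± 0.39 (SE), edgeR adjusted p = 0.275). CDX2, which sets intestinal identity, and GATA4, which marks the proximal small intestine, ranged from 71.2 to 138 and 92.2 to 241 CPM in control steers and from 117 to 172 and 174 to 254 CPM in GLP-2 steers (edgeR adjusted p = 0.468 and 0.467). Tight and adherens junction genes were above 0 in 28 of 30 cases, median 0.55, with 9 at an unadjusted p of at most 0.05. TJP1, which encodes the scaffold ZO-1, stood at 51.6, 79.5, 42.7, 69.4 and 64.7 CPM in control steers and 92.9, 100.4, 61, 79.7 and 105 CPM in GLP-2 steers (log2 fold change 0.51 ± 0.20 (SE), edgeR adjusted p = 0.275). PARD3, a polarity protein, ranged from 15.7 to 37.8 CPM in control and 25.8 to 51.8 CPM in GLP-2 steers (log2 fold change 0.74 ± 0.26 (SE), edgeR adjusted p = 0.237), MAGI3 from 23.1 to 82.4 CPM in control and 60 to 106 CPM in GLP-2 steers and TJP3 from 19.5 to 59.2 CPM in control and 41 to 80.8 CPM in GLP-2 steers. Of the genes of the microvillus cytoskeleton 22 of 24 were above 0 (median 0.55). MYO1D, an unconventional myosin of the brush border, ranged from 141 to 372 CPM in control and 324 to 646 CPM in GLP-2 steers, while MYO1E, a related myosin, was lower without overlap, at 18.2, 18.3, 26.6, 21.7 and 27.4 CPM in control steers and 13.4, 14.5, 10.5, 12.4 and 12.7 CPM in GLP-2 steers (log2 fold change -0.82 ± 0.32 (SE), edgeR adjusted p = 0.271). Sphingolipid genes were above 0 in 31 of 41 cases (median 0.41), 6 at that p higher and 3 lower (5.59% and 8.35% of all genes). CERS4, a ceramide synthase, was the lower member of smallest p, at 5.26, 0.706, 8.16, 2.36 and 5.27 CPM in control steers and 1.28, 0.663, 0.822, 0.485 and 0.0763 CPM in GLP-2 steers (log2 fold change -2.69 ± 0.94 (SE), edgeR adjusted p = 0.236). With the follicle covariate the medians of the transcription factors, junctions, microvillus and sphingolipid genes were -0.09, -0.11, -0.38 and -0.06.

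Nuclear genes of oxidative phosphorylation were above 0 in 45 of 46 cases with a median of 0.31, and the 2 at an unadjusted p of at most 0.05 (4.35%, against 5.59% of all genes higher) were ATP5MC1, a subunit of ATP synthase (213 to 333 against 269 to 470.1 CPM), and NDUFS1, a core subunit of complex I (92.9 to 235 against 165 to 352 CPM). The list's score in GLP-2 1, at 7.55, lay below 3 of the control steers, so the groups overlapped. Glycolysis and citrate cycle genes split 27 above and 13 below 0, median 0.38, with 7 higher and 2 lower at that p (5.59% and 8.35% of all genes). FBP2, a gluconeogenic fructose bisphosphatase, was the 1 of them without overlap, at 8.92, 2.56, 5.73, 7.94 and 3.57 CPM in control steers and 12.8, 18.4, 21.3, 15.8 and 15.9 CPM in GLP-2 steers (log2 fold change 1.55 ± 0.49 (SE), edgeR adjusted p = 0.209), and IDH1, which makes cytosolic NADPH, ranged from 131 to 429 CPM in control and 398 to 746 CPM in GLP-2 steers (log2 fold change 0.95 ± 0.32 (SE), edgeR adjusted p = 0.229). NNT, the mitochondrial transhydrogenase, stood at 90.4, 141, 54, 127 and 78.4 CPM in control steers and 234, 291, 145, 116 and 234 CPM in GLP-2 steers (log2 fold change 1.06 ± 0.28 (SE), edgeR adjusted p = 0.162, DESeq2 adjusted p = 0.0255). GGTA1, which adds galactose to surface glycans, ranged from 14.8 to 59.2 CPM in control and 39.3 to 117 CPM in GLP-2 steers (log2 fold change 1.02 ± 0.40 (SE), edgeR adjusted p = 0.272). EHD3, an endosomal transport protein, was lower at 86.1, 1.59, 179, 16.9 and 116 CPM in control steers and 5.03, 1.53, 2.75, 2.13 and 2.06 CPM in GLP-2 steers (log2 fold change -4.89 ± 1.18 (SE), edgeR adjusted p = 0.142, DESeq2 adjusted p = 0.00103), with controls 1, 3 and 5 high and Control 2 level with the GLP-2 steers. NNT, GGTA1, EHD3 and MFSD11 had been singled out from a pooled comparison that includes these steers, so their directions are not independent evidence.

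Of 45 DNA replication genes 42 were below 0, median -0.84, with 27 lower and 0 higher at an unadjusted p of at most 0.05 (8.35% and 5.59% of all genes) and 5 called lower by DESeq2 (1.6%). MCM3, a subunit of the replicative helicase, stood at 129.7, 42.1, 154, 39.1 and 122 CPM in control steers and 59.3, 27.8, 44.4, 23.2 and 31.4 CPM in GLP-2 steers (log2 fold change -1.39 ± 0.41 (SE), edgeR adjusted p = 0.184, DESeq2 adjusted p = 0.0399). Controls 1, 3 and 5 lay above every GLP-2 steer, and Control 2 and 4 lay among them. RFC2, of the clamp loader, ranged from 21.6 to 87.3 CPM in control and 19.6 to 29.8 CPM in GLP-2 steers, GINS4, of the helicase complex, from 3.09 to 14.7 CPM in control and 1.6 to 4.87 CPM in GLP-2 steers, and POLA2, of the primase complex, from 8.82 to 31.3 CPM in control and 5.06 to 12.3 CPM in GLP-2 steers (DESeq2 adjusted p = 0.0296, 0.0262 and 0.0375). Mitotic genes were below 0 in 28 of 30 cases (median -0.69, 8 or 26.7% lower at that p). CDC20, which activates the anaphase-promoting complex, stood at 72.5, 12.4, 113, 20.6 and 74.9 CPM in control steers and 40.5, 11.8, 30, 11.8 and 15.6 CPM in GLP-2 steers (log2 fold change -1.42 ± 0.55 (SE), edgeR adjusted p = 0.275), AURKB, a mitotic kinase, ranged from 14.7 to 93.7 CPM in control and 12.2 to 32.5 CPM in GLP-2 steers, and NUSAP1, a spindle protein, from 13.1 to 93.2 CPM in control and 12.7 to 40.4 CPM in GLP-2 steers. GLP-2 1 was the highest GLP-2 steer for all of MCM3, CDC20, AURKB and NUSAP1. Cytosolic ribosomal protein genes were below 0 in 77 of 78 cases (median -0.61, 37 or 47.4% lower at that p) and genes of ribosome biogenesis in 56 of 59 (median -0.50, 21 or 35.6% lower). RPL8 stood at 1763, 677, 2597, 964 and 2521 CPM in control steers and 829, 708, 1185, 888 and 644 CPM in GLP-2 steers (log2 fold change -1.0 ± 0.33 (SE), edgeR adjusted p = 0.218), RPL15 ranged from 605 to 1695 CPM in control and 467 to 800.4 CPM in GLP-2 steers, and FBL, the methyltransferase fibrillarin, from 28.4 to 137 CPM in control and 20.1 to 43.7 CPM in GLP-2 steers. With the follicle score as a covariate these medians were 0.13 for replication, 0.66 for mitosis, 0.11 for ribosomal proteins and 0.11 for ribosome biogenesis. None was below 0, but the score overlaps with treatment, so nothing is read from the change of sign. Wnt pathway and crypt stem cell genes split 14 above and 7 below 0 (median 0.34, -0.11 without GLP-2 1). Of the 21 tested, 1 was higher without overlap (0.888% of all genes). FZD5, a Wnt receptor, stood at 6.66, 38.4, 12.1, 16.2 and 6.52 CPM in control steers and 48.8, 64.1, 25.3, 18.5 and 52.5 CPM in GLP-2 steers (log2 fold change 1.39 ± 0.50 (SE), edgeR adjusted p = 0.247), WNT11 at 34, 21.5, 19.9, 44.8 and 16 CPM in control steers and 27.9, 53.6, 52.5, 46.4 and 45.3 CPM in GLP-2 steers (log2 fold change 0.73 ± 0.28 (SE), edgeR adjusted p = 0.274), and LGR4, an R-spondin receptor, ranged from 42.4 to 139.5 CPM in control and 135 to 205 CPM in GLP-2 steers. RNF43, which removes Wnt receptors from the surface, was the member without overlap, at 18.2, 23.4, 10.8, 22.9 and 16.6 CPM in control steers and 27.8, 23.7, 26.4, 28 and 31.2 CPM in GLP-2 steers (log2 fold change 0.58 ± 0.31 (SE), edgeR adjusted p = 0.395). CD44, a surface receptor of crypt cells and leukocytes, was lower, at 84.5, 39.4, 145, 57.9 and 133 CPM in control steers and 60.4, 29.1, 47.7, 46.9 and 31.7 CPM in GLP-2 steers (log2 fold change -1.09 ± 0.34 (SE), edgeR adjusted p = 0.205), and LGR5, the stem cell receptor, was at most 1.33 CPM in any of the 10 steers and at 0 in Control 2 and GLP-2 3.

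All 10 goblet cell genes tested were above 0, median 0.66, with CREB3L1, a secretory pathway transcription factor (41.2 to 109 against 67 to 139 CPM), and GALNT12, which starts mucin-type glycans (26 to 96.9 against 79.7 to 114 CPM), the 2 at an unadjusted p of at most 0.05 (5.59% of all genes). Of the 16 symbols listed, 12 had an entry in the counts, and the goblet cell marker MUC2 had none. TFF3, a trefoil peptide of mucus, stood at 599, 219, 311, 552 and 189.9 CPM in control steers and 460.5, 617, 1263, 1069 and 575 CPM in GLP-2 steers (log2 fold change 1.09 ± 0.54 (SE), edgeR adjusted p = 0.367), and CLCA1, a goblet cell protease, at 847, 169, 58.7, 312 and 33 CPM in control steers and 1073, 838, 947, 751 and 715 CPM in GLP-2 steers (log2 fold change 1.61 ± 0.81 (SE), edgeR adjusted p = 0.378). For CLCA1, Control 1 lay among the GLP-2 steers and the other 4 control steers lay below all of them. CHGA, the chromogranin of enteroendocrine granules, stood at 51.8, 29.9, 59.5, 34.1 and 59.9 CPM in control steers and 145, 62.6, 92.6, 62.3 and 78.1 CPM in GLP-2 steers without overlap (log2 fold change 0.91 ± 0.29 (SE), edgeR adjusted p = 0.212), and NTS, neurotensin, at 4.01, 16.4, 5.73, 5.91 and 1.47 CPM in control steers and 18.2, 30.9, 10.5, 12.1 and 23.4 CPM in GLP-2 steers (log2 fold change 1.51 ± 0.63 (SE), edgeR adjusted p = 0.293). The other defining enteroendocrine markers overlapped between the groups, with CCK at 4.11 to 17.4 against 13 to 20.3 CPM, PYY at 0.113 to 2.04 against 0.0763 to 1.36 CPM, and CHGB at 0 in 4 of the 10 steers. The wider list of 14 genes split 8 above and 6 below 0, and its median of 0.17 was -0.05 without GLP-2 1 and -0.03 without Control 2.

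The B cell follicle genes were the largest group difference by median among the 34 lists with a tested member. All 30 were below 0, with a median log2 fold change of -3.0, 29 at an unadjusted p of at most 0.05 and 22 called by DESeq2, against 8.35% and 1.6% of all genes. CR2, the complement receptor of B cells and follicular dendritic cells, stood at 202, 0.882, 277, 34.8 and 162 CPM in control steers and 0.878, 0.953, 1.89, 1.94 and 0.839 CPM in GLP-2 steers (log2 fold change -6.69 ± 1.51 (SE), edgeR adjusted p = 0.131, DESeq2 adjusted p = 3.58e-05). CXCL13, the chemokine that draws B cells into follicles, stood at 152, 0.176, 218, 17.4 and 71.6 CPM in control steers and 1.6, 0.0829, 0.616, 0.097 and 0.153 CPM in GLP-2 steers (log2 fold change -7.51 ± 1.96 (SE), edgeR adjusted p = 0.162, DESeq2 adjusted p = 0.000398). In both, Control 2 lay within the GLP-2 range and Control 4 between that range and the 3 highest control steers. CD79A and CD79B, the signaling chains of the B cell receptor, stood at 98, 4.94, 215, 18.3 and 154 and at 77, 0.618, 221, 8.84 and 90.9 CPM in control steers, and ranged from 5.05 to 8.46 and 0.456 to 2.33 CPM in GLP-2 steers (log2 fold change -3.96 ± 0.86 (SE), edgeR adjusted p = 0.122, and log2 fold change -6.04 ± 1.38 (SE), edgeR adjusted p = 0.131). VPREB3, a protein of B cells, ranged from 0.176 to 165 CPM in control and 0.456 to 1.6 CPM in GLP-2 steers. CD37, a tetraspanin of mature B cells, was 1 of 2 members without overlap, at 137, 92.9, 169.9, 65.2 and 135 CPM in control steers and 38.9, 46.7, 58.8, 49.7 and 35.9 CPM in GLP-2 steers (log2 fold change -1.38 ± 0.32 (SE), edgeR adjusted p = 0.142). The other was FCRLA, and 0.862% of all genes were lower without overlap. The list score was 5.32, 1.17, 6.48, 3.35 and 5.8 in control steers and 2.12, 1.28, 1.91, 1.95 and 1.32 in GLP-2 steers. Among the other 12 steers it ranged from 1.61 to 6.27 with casein and from 0.64 to 2.6 with casein and GLP-2. Low scores thus occurred in all 4 treatments and the highest scores in vehicle-injected steers alone.

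Plasma cell genes split 5 above and 10 below 0 (median -0.25). JCHAIN, which joins secreted antibodies, stood at 1577, 62.1, 1598, 571 and 5106 CPM in control steers and 1826, 123, 293, 382 and 701 CPM in GLP-2 steers (log2 fold change -1.42 ± 0.93 (SE), edgeR adjusted p = 0.483), and DERL3, of the plasma cell secretory pathway, ranged from 2.65 to 76.9 CPM in control and 3.31 to 16.9 CPM in GLP-2 steers. T cell and intraepithelial lymphocyte genes were below 0 in 25 of 29 cases (median -0.37). LCK, the kinase of the T cell receptor, stood at 259, 206, 212, 126 and 141 CPM in control steers and 81.1, 128, 121, 90.9 and 95.4 CPM in GLP-2 steers (log2 fold change -0.87 ± 0.24 (SE), edgeR adjusted p = 0.17, DESeq2 adjusted p = 0.031), CD5 ranged from 54.4 to 101 CPM in control and 32 to 66 CPM in GLP-2 steers and UBASH3A from 22 to 46.7 CPM in control and 16.9 to 25 CPM in GLP-2 steers, and these 3, 10.3% of the list, were the members at an unadjusted p of at most 0.05 (8.35% of all genes lower). Interferon response genes were below 0 in 27 of 33 cases (median -0.42), 8 of them at that p (8.35% of all genes). GBP2, a guanylate binding protein, stood at 74.5, 53.9, 33, 58.7 and 20.8 CPM in control steers and 29.8, 23, 25.8, 18.3 and 19.8 CPM in GLP-2 steers (log2 fold change -1.05 ± 0.34 (SE), edgeR adjusted p = 0.21), and IDO1, which degrades tryptophan, at 479, 154, 75.3, 272 and 99.7 CPM in control steers and 115, 80.6, 101, 73.9 and 90.2 CPM in GLP-2 steers (log2 fold change -1.23 ± 0.40 (SE), edgeR adjusted p = 0.213). MX2, an antiviral GTPase, stood at 51.6, 36.7, 39.5, 25.3 and 23.8 CPM in control steers and 12, 9.7, 13.6, 16.7 and 18.8 CPM in GLP-2 steers without overlap (log2 fold change -1.33 ± 0.50 (SE), edgeR adjusted p = 0.264), and ISG15 at 111, 231, 64, 126 and 31.9 CPM in control steers and 31.4, 71.1, 36.8, 60.1 and 69.9 CPM in GLP-2 steers (log2 fold change -1.06 ± 0.44 (SE), edgeR adjusted p = 0.288). Control 2 was high for ISG15, at 231 CPM, and had a list score of 6.07, the highest of the 10 steers. Macrophage and dendritic cell genes gave 13 above and 7 below 0 with a median of 0.08 (-0.03 with a gene length correction). FLT3, a dendritic cell receptor, was higher at 26.7, 31.3, 28.2, 56 and 13.9 CPM in control steers and 50.1, 83.7, 58.7, 61.4 and 56.8 CPM in GLP-2 steers (log2 fold change 0.99 ± 0.35 (SE), edgeR adjusted p = 0.237), and CD14, the lipopolysaccharide receptor of monocytes, lower at 47.8, 9.7, 108, 37.4 and 65.8 CPM in control steers and 23, 16.1, 39.3, 23.7 and 12.3 CPM in GLP-2 steers (log2 fold change -1.23 ± 0.53 (SE), edgeR adjusted p = 0.312).

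Smooth muscle genes were below 0 in 15 of 17 cases (median -0.58, but 0.21 without Control 5). DES, desmin, stood at 11.4, 2.91, 128, 18.5 and 371 CPM in control steers and 125, 8.74, 29.9, 44.2 and 22.8 CPM in GLP-2 steers, so Control 5 alone exceeded every other steer, and MYL9, a myosin light chain, stood at 76.8, 78.8, 229, 86.4 and 224 CPM in control steers and 92.8, 68.1, 68.1, 90.7 and 64.2 CPM in GLP-2 steers (log2 fold change -0.86 ± 0.32 (SE), edgeR adjusted p = 0.262). Stroma and collagen genes split 12 above and 9 below 0 (median 0.23, -0.66 without GLP-2 1, -0.14 in the paired fit). VIM, vimentin, stood at 228, 14.9, 426, 98.6 and 442 CPM in control steers and 136, 52.2, 115, 145 and 42.5 CPM in GLP-2 steers (log2 fold change -1.3 ± 0.72 (SE), edgeR adjusted p = 0.408). Endothelial and blood genes split 5 and 4 (median 0.03, -0.02 with DESeq2's size factors). None of the stroma or endothelium genes was at an unadjusted p of at most 0.05. GLP-2 1 was the highest of the 10 steers for stroma (7.05) and Control 2 the lowest (2.54), in list score. Immediate early and stress genes were below 0 in 18 of 20 cases (median -0.26), with IER2 (111 to 162 against 79.4 to 119 CPM) and EGR1 (20.5 to 41.7 against 18.8 to 23.5 CPM) at that p (10% of the list, 8.35% of all genes lower). FABP6, the bile acid binding protein of the ileum, stood at 109.7, 0.794, 221, 18.4 and 13.3 CPM in control steers and 0.479, 2.98, 0.739, 2.91 and 1.14 CPM in GLP-2 steers (log2 fold change -5.45 ± 1.37 (SE), edgeR adjusted p = 0.142, DESeq2 adjusted p = 0.00226), with controls 1 and 3 highest. It was the 1 of 6 genes of position along the intestine at that p (8.35% of all genes lower), and the list split 4 above and 2 below 0.

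**Figure D3:**
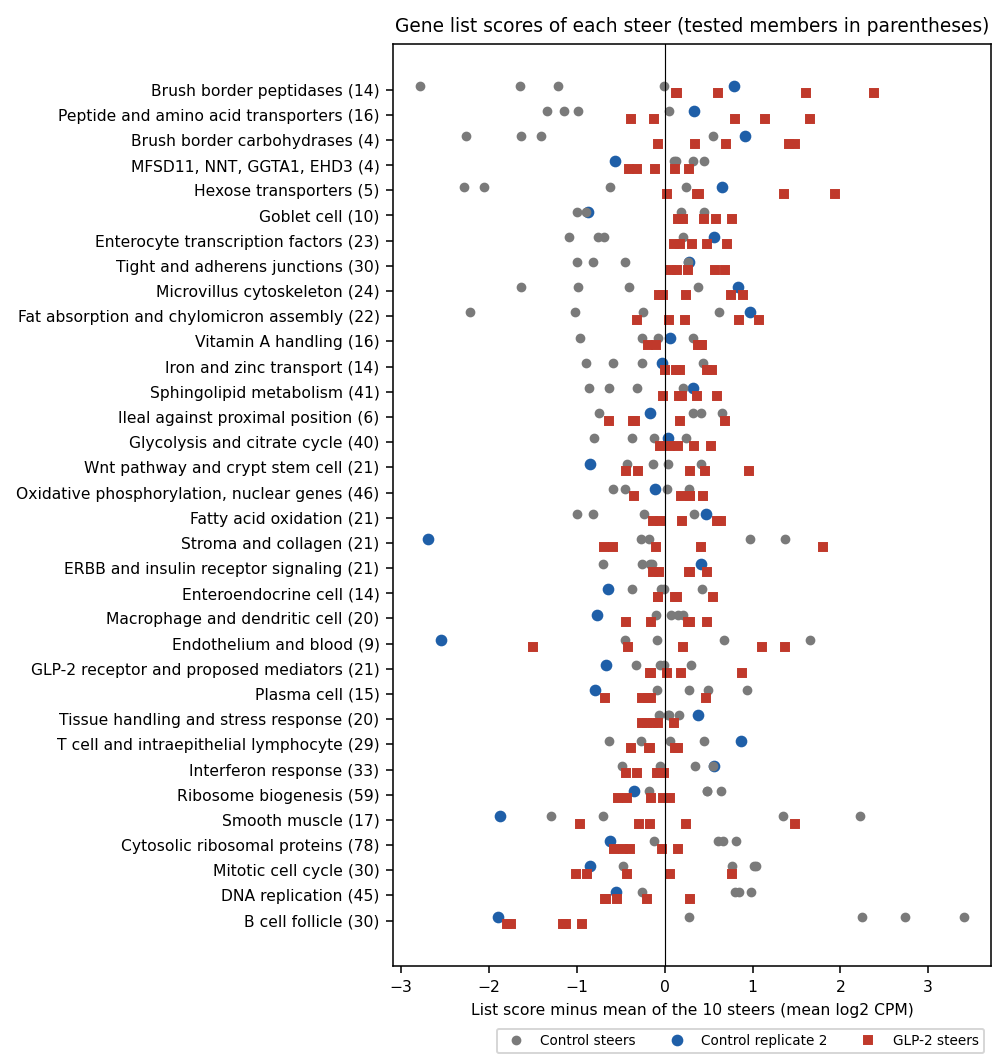
List scores (mean log2 CPM of tested members) of each steer minus the mean of the 10 steers, for 34 gene lists. Points are single steers, with control steers in gray, Control replicate 2 in blue and GLP-2 steers in red; no list separates the groups completely, and Control 2 lies with the GLP-2 steers for the B cell follicle (1.17 against 1.28 to 2.12).

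The same injection contrast could be looked at in the 12 casein-infused steers, which share no steer with the 10 above. There edgeR called 0 genes and DESeq2 6.55% of those it tested, 2.31% higher and 4.23% lower. Of the 843 genes higher at an unadjusted p of at most 0.05 with water, 699 (82.9%) were also above 0 with casein, where 48.1% of all genes were, and of the 1260 lower genes 1134 (90%) were also below 0, where 51.9% of all genes were. B cell follicle genes had a median of -2.49 with casein, below 0 in all 30, and CR2 and CXCL13 had log2 fold changes of -4.94 ± 1.26 and -7.91 ± 1.84 (SE). Ribosomal protein genes had a median of -0.90 and replication genes of -0.72. Among the leading genes, the 12 higher were above 0 in 11 cases with casein and the 12 lower were below 0 in all 12, but 3 and 6 of them reached an unadjusted p of at most 0.05 there (9.88% and 14.2% of all genes). The difference between both contrasts reached such a p for 8 and 7 of them (4.28% of all genes, 2.59% with a larger and 1.68% with a smaller value under water). These genes were chosen by their p with water, which is part of that difference, so the count is fixed in part by the choice and nothing is read from it. No adjusted p of the difference was below 0.956 in edgeR. Several of the genes described above had log2 fold changes near 0 with casein, with HSH2D at -0.18 ± 0.23, SOCS1 -0.10 ± 0.24, CNP -0.03 ± 0.20, PGLYRP2 -0.05 ± 0.58 and MME 0.11 ± 0.39 (SE), against -1.35, -1.35, -0.98, -3.34 and 1.81 with water. INSR and MFSD11 were closer, at 0.89 ± 0.31 and 0.50 ± 0.15. SLC15A1 and SLC6A19 were at -0.47 ± 0.61 and -0.10 ± 0.99 with casein against 2.27 and 3.05 with water. SLC5A1 showed the larger value with casein, 2.13 ± 0.60 against 0.62 ± 0.64. GBP2 had opposite signs, 0.77 ± 0.31 with casein and -1.05 ± 0.34 (SE) with water, and interferon response genes as a list had medians of 0.29 and -0.42. GLP2R, GCG and IGF1 were below 0 with casein (-1.05 ± 0.65, -0.21 ± 0.35 and -0.28 ± 0.40). CHGA was at -0.30 ± 0.27, against 0.91 ± 0.29 (SE) with water. Stroma, endothelium and smooth muscle lists had medians of -1.34, -1.61 and -1.52 with casein. The difference between contrasts was not past the adjusted threshold for any of these genes. The 2 genes that DESeq2 called for it (0.0133% of all genes) have no symbol, were at 0 in at least 1 GLP-2 steer and had unadjusted edgeR p values of 0.000434 and 6.34e-05, with the smaller value under water in both.

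**Figure D4:**
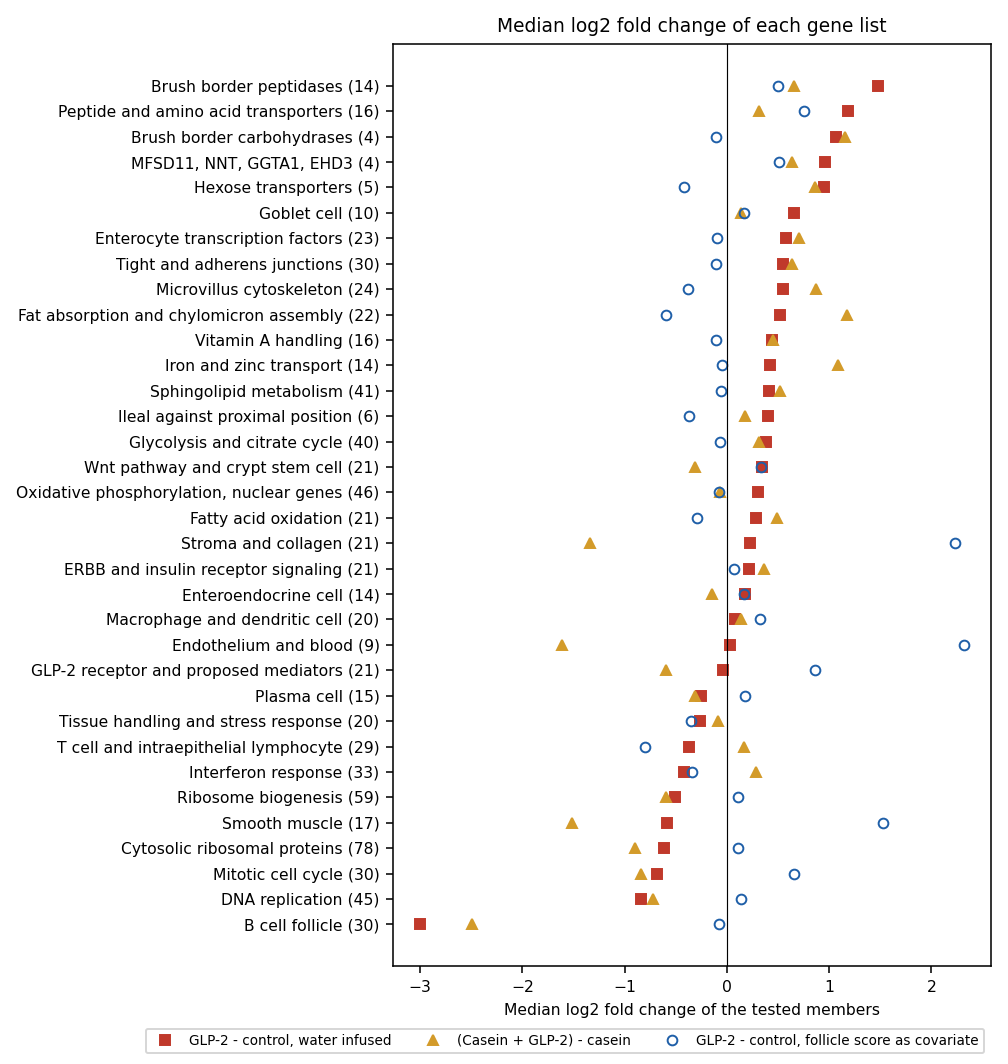
Median log2 fold change of each gene list for GLP-2 minus control with water infusion, for the same injection contrast in casein-infused steers, and for water infusion with the B cell follicle score as a covariate. Follicle genes lie at -3.00 with water and -2.49 with casein. With the covariate the ribosomal protein median lies at 0.11 and the carbohydrase median at -0.10.

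Single steers decided how many genes were called. Left out 1 at a time from the fit of all 22 steers, 19 of them gave 0 calls in edgeR, as in the full set. Without Control 2 the test called 429 genes, 148 higher and 281 lower, without casein-infused vehicle steer 3 it called 118, 13 higher and 105 lower, and without Control 4 it called 8, 1 higher and 7 lower. Control 2 was the control steer with the lowest follicle score (1.17) and the highest enterocyte marker sum. Its list score was closer to the mean of the GLP-2 steers than to that of the other control steers in 26 of 34 lists, and that of Control 4 in 23, against 5, 7 and 10 lists for controls 1, 3 and 5. In that fit, where 1.83% of all genes were called lower, the lower calls included 18 of 30 B cell follicle genes, 12 of 45 DNA replication genes and 8 of 78 ribosomal protein genes. Called higher, against 0.962% of all genes, were 4 of 14 peptidases and 2 each of 16 peptide and amino acid transporters, 21 ERBB and insulin receptor genes and 23 enterocyte transcription factors. MFSD11 then had a log2 fold change of 0.94 (edgeR adjusted p = 0.0287), INSR of 1.77 (edgeR adjusted p = 0.0287), MME of 1.9 (edgeR adjusted p = 0.041) and SLC15A1 of 2.87 (edgeR adjusted p = 0.0416). SOCS1 and HSH2D had values of -1.34 (edgeR adjusted p = 0.0331) and -1.41 (edgeR adjusted p = 0.0302). GLP2R remained at 0.55 (edgeR adjusted p = 0.682) and SLC5A1 at 1.1 (edgeR adjusted p = 0.311). Nothing in the labels marks Control 2 as unlike its group, and its part in the results was measured only by leaving it out. It was the control steer closer to the GLP-2 mean in the most lists, so leaving it out tends to widen the group difference. The calls and adjusted p values without it are therefore no support for these genes or lists.

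**Figure D5:**
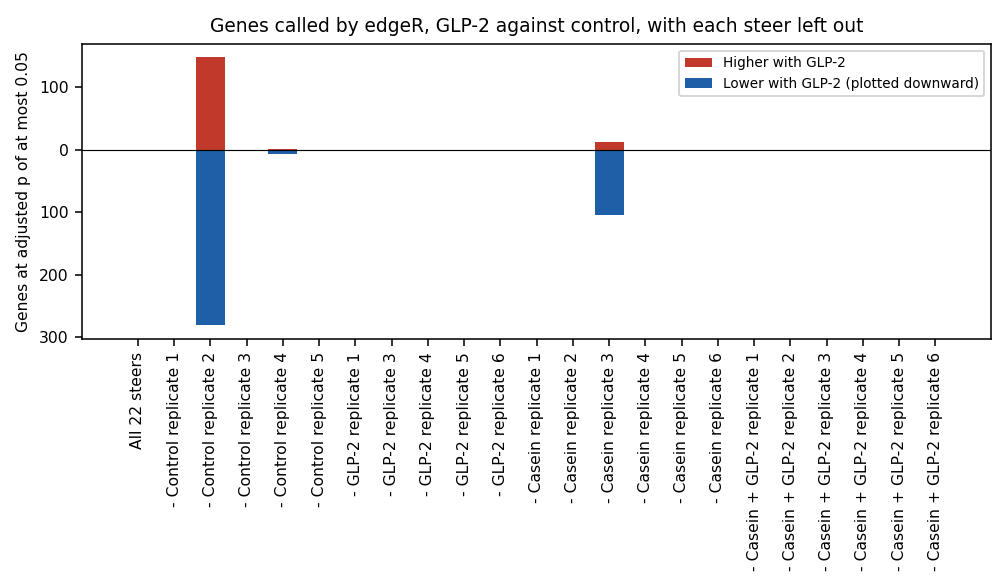
Genes called at an adjusted p of 0.05 (edgeR) for GLP-2 against control when each of the 22 steers is left out in turn, with higher genes plotted upward and lower genes downward. Leaving out Control 2 gives 148 higher and 281 lower genes, Casein 3 gives 13 and 105, Control 4 gives 1 and 7, and every other steer gives 0.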

How the data were processed

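Jejunal mucosa of 22 steers was sequenced as paired-end, strand-specific polyadenylated RNA. The submitters' processing notes name HISAT2 2.0.5, StringTie 1.3.3b, featureCounts 1.5.0-p3, DESeq2 1.20 and the ARS-UCD1.2 genome. The deposited tables give counts of reads per gene, which the authors had not normalized, and FPKM values, which the authors had scaled for depth and gene length. The FPKM values entered 1 alternative test, limma on log2(FPKM + 1) or log2(FPKM + 0.1).

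Counts were filtered (edgeR's filterByExpr, minimum count 10), scaled by TMM and fitted for all 22 steers and 4 treatments in 1 quasi-likelihood model (edgeR 4.0.16, R 4.3.3), which shares 1 estimate of the spread. P values were adjusted by Benjamini and Hochberg over all 15086 genes with a threshold of 0.05. DESeq2 1.42.0 and limma 3.58.1 gave alternatives. The statistics step was tested on simulated counts. Fold changes are GLP-2 minus control on the log2 scale. Their SE was derived as the absolute log2 fold change divided by the square root of edgeR's quasi-likelihood F. Replicates are separate steers.

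Genes were named by rule, among those with a symbol: the 12 higher and 12 lower of smallest edgeR p, the 8 higher and 8 lower DESeq2 calls of smallest p, up to 4 members of each of 35 lists by p, and GLP-2 pathway genes. MEP1A, MEP1B, ACE, SLC6A19, SLC7A5, EGFR, RNF43, HBEGF, LGR5 and FABP2 are named outside it, after their values were seen. Some genes that the rule reaches are not reported here. Members and lists were chosen with earlier results of these data known. Lists held 893 symbols, of which 819 were tested, and no gene of the mitochondrial genome was matched. For the 8 symbols that matched several identifiers, the entry with the highest mean count was used. List scores are mean log2 CPM (prior count 2) of tested members.

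Replicate numbers mark blocks of body weight. Deviations of same-numbered control and GLP-2 steers correlated at -0.15, -0.29, -0.17 and 0.13 across genes in the 4 shared blocks. The paired fit is given as an alternative, since the study's methods do not say whether block was a term of its model.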

Additional observations from a re-analysis of the deposited data

Results flagged for a closer look

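Within groups of 5 steers, a value was picked out where its gap to the nearest other steer exceeded 0.71 of the group's range (Dixon's test). Chance alone picks about 1 group in 20 and skewed levels pick more. Among 126 named genes looked at in both groups, 14 values were picked on the CPM scale and 4 on the log2 scale, 2 of which are on both.

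GLP-2 replicate 3 was the highest of its group for NAALADL1 (113 CPM, others 2.52 to 8.01), SLC7A9 (195 CPM, others up to 50.5), SLC6A19 (975 CPM, others up to 288), TMEM164 (353 CPM, others up to 241) and CDX2 (172 CPM, others up to 132). GLP-2 replicate 1 was the highest for GLP2R (29.6 CPM, others 4.42 to 8.30), NUSAP1 (40.4 CPM, others up to 20.7) and HBEGF (2.15 CPM, others up to 1.78), and the lowest for VIPR1 (61.8 CPM, others 119 to 134), WNT11 (27.9 CPM, others 45.3 to 53.6) and GALNT12 (79.7 CPM, others 103 to 114). GLP-2 replicate 5 was the highest for CRABP1 (1.75 CPM, others up to 0.787).

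All 4 picked control values belonged to Control 2, the highest of its group for ANPEP (1340.0 CPM, others up to 339), SLC1A1 (94 CPM, others up to 27.5), NAALADL1 (5.03 CPM, others up to 2.17) and SLC5A11 (2.65 CPM, others up to 0.225).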

How the results depend on the processing

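The number of genes called for GLP-2 against control at an adjusted p of 0.05 in edgeR was 0 under DESeq2's size factors, upper quartile scaling, no filter on low counts, a filter of 10 counts in every steer, a fit of the 10 steers alone, the replicate block, a gene length correction, both of these together, a robust spread and the follicle covariate, and 0 in limma on FPKM. DESeq2's Wald test called 289, and 891 and 2 genes for the casein-infused contrast and the difference of contrasts. At an adjusted p of 0.1 the casein-infused contrast had 1 gene, which has no symbol. Leaving out 1 steer at a time gave 0 to 429 calls (0 to 1 with casein), 1279 to 3805 genes at an unadjusted p and 311 to 1009 genes without overlap, against 2103 and 264. The count without overlap rises when fewer steers have to separate, so its range does not measure stability. The 10 steers alone gave 1726, and the paired fit with the replicate block 1882 at an unadjusted p, 956 higher and 926 lower, with a smallest adjusted p of 0.162. It changed no other call.

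The follicle covariate left 1061 genes at an unadjusted p, 673 higher and 388 lower, and 226 of the 2103 kept both p and direction. The covariate is made of genes that differ between the groups, so it overlaps with treatment. Of 126 named genes, 30 changed sign with it. Log2 fold changes above 0 with it were NUSAP1 0.33, AURKB 0.33, CDC20 0.51, FBL 0.095, CD44 0.041, STRA6 0.58, CRABP1 0.49, SLC7A5 0.86, JCHAIN 2.25, DERL3 0.98, DES 2.86, VIM 1.62, CD14 0.70 and LGR5 3.43. Values below 0 were SLC5A1 -0.42, SLC2A2 -0.49, SI -0.042, MGAM -0.16, TREH -0.49, MEP1B -0.069, FABP2 -0.66, CDX2 -0.084, GATA4 -0.34, MYO1D -0.17, TM6SF2 -0.22, IGF2R -0.0093, LGR4 -0.038, RNF43 -0.15, CREB3L1 -0.061 and GALNT12 -0.14. The cause was not tested. Without 1 steer, GLP2R ranged from -0.026 to 1.05 and DES from -2.07 to 0.11, and no other named gene changed sign. With 5 steers a group and totals from 10447886 counts, levels below 1 CPM rest on few reads.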
